A study of Mus musculus with 16 samples.

Results

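A set of 10 genes that handle zinc or load glutamate into synaptic vesicles were followed in cultured hippocampal neurons that received human apoE lipoproteins. They are the zinc exporters *Slc30a1*, *Slc30a3*, *Slc30a4* and *Slc30a10*, the metallothioneins *Mt1*, *Mt2* and *Mt3*, and the vesicular glutamate transporters *Slc17a6*, *Slc17a7* and *Slc17a8*. Their symbols were looked up in the gene counts of all 16 libraries, where 10 of 10 were found among 48397 symbols and 10 of 10 were among the 17038 genes left by a filter on low counts. The list was drawn up with the comparisons of these same libraries known, so that differences of its members between treatments are given as a description, with their errors, and the counts of members called by the fits are printed beside the share of all genes without being read as evidence.

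The neurons were primary hippocampal cultures of newborn wild type CD1 mice, and each of the 4 groups held 4 libraries, numbered 1 to 4. All groups received 10-fold concentrated conditioned medium at 10 and 13 days *in vitro* (DIV), and RNA was taken at 17 DIV. The control neurons received the medium of immortalized *Apoe*-/- astrocytes, which holds no apoE, and the apoE2, apoE3 and apoE4 neurons received the medium of immortalized astrocytes from targeted replacement mice homozygous for that human *APOE* allele. All cultures had also been given AraC, which stops dividing cells. The medium adds protein and lipid together with whatever else the astrocyte line secretes, and each isoform comes from its own astrocyte line, so the isoform and the line cannot be told apart.

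In glutamatergic terminals zinc is stored in synaptic vesicles beside glutamate. ZnT3, the product of *Slc30a3*, is the transporter that fills vesicles with zinc, and hippocampal mossy fibres, the axons of dentate granule cells, are known for their vesicular zinc. Other ZnT proteins move zinc out of the cytosol across the plasma membrane or into compartments. Metallothioneins are small cysteine-rich proteins that bind zinc and copper in the cytosol, and *Mt1*, *Mt2* and *Slc30a1* are switched on by zinc through the transcription factor MTF-1, which binds metal response elements in the promoter. In the brain *Mt1* and *Mt2* RNA is most abundant in astrocytes, while *Mt3* is the metallothionein known for the brain and responds little to metals. VGLUT1 (*Slc17a7*), VGLUT2 (*Slc17a6*) and VGLUT3 (*Slc17a8*) load vesicles with glutamate, and VGLUT1 is the main form of the hippocampus and cortex.

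The libraries held 14087723 to 34248172 counts on genes. Levels are given as CPM, the counts relative to the library size on the TMM scale. Libraries that share a number deviated together in all 24 such pairs, with correlations across genes of 0.36 to 0.83 once each group mean was removed. Libraries of different groups and numbers gave −0.74 to 0.57, which overlaps that range. Each difference was therefore fitted without and with the number as a replicate block. Summed over 8 neuronal markers the libraries lay between 3375 and 7690 CPM, and over 12 astrocyte markers between 1346 and 6716 CPM. None of the 12 astrocyte markers was at 0 in all libraries. The libraries numbered 4 stood apart, with the lowest *Slc17a7* and *Slc30a3* in each group, and results that rest on them are given with and without them. In apoE2 number 4 and apoE4 number 2, 38.4 and 38.6% of reads were on no single gene, against 51.4 to 73.7% in the other 14 libraries, and *Lars2* took 0.690 and 0.359% of the counts on genes, against 2.83 to 15.02%.

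*Slc30a3* was the member with the widest range. The gene lies on chromosome 5 from 31086106 to 31108237 on the minus strand (GRCm38). Its level in the control libraries 1 to 4 was 12.8, 14.8, 14.1 and 2.67 CPM. With apoE2 it was 3.52, 7.41, 5.94 and 1.53 CPM, with apoE3 1.37, 6.07, 3.24 and 0.131 CPM, and with apoE4 6.30, 8.49, 12.5 and 2.04 CPM. Each treated library was below the control library of its number in 4 of 4 pairs with each isoform, and the lowest control library overlapped every treated group. Order of the group means was control (11.1 ± 5.66 CPM, SD, n = 4), apoE4 (7.34 ± 4.37), apoE2 (4.60 ± 2.60) and apoE3 (2.70 ± 2.58), and each neighbouring pair of means lay closer together than the larger SD of the pair.

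**Figure D1:**
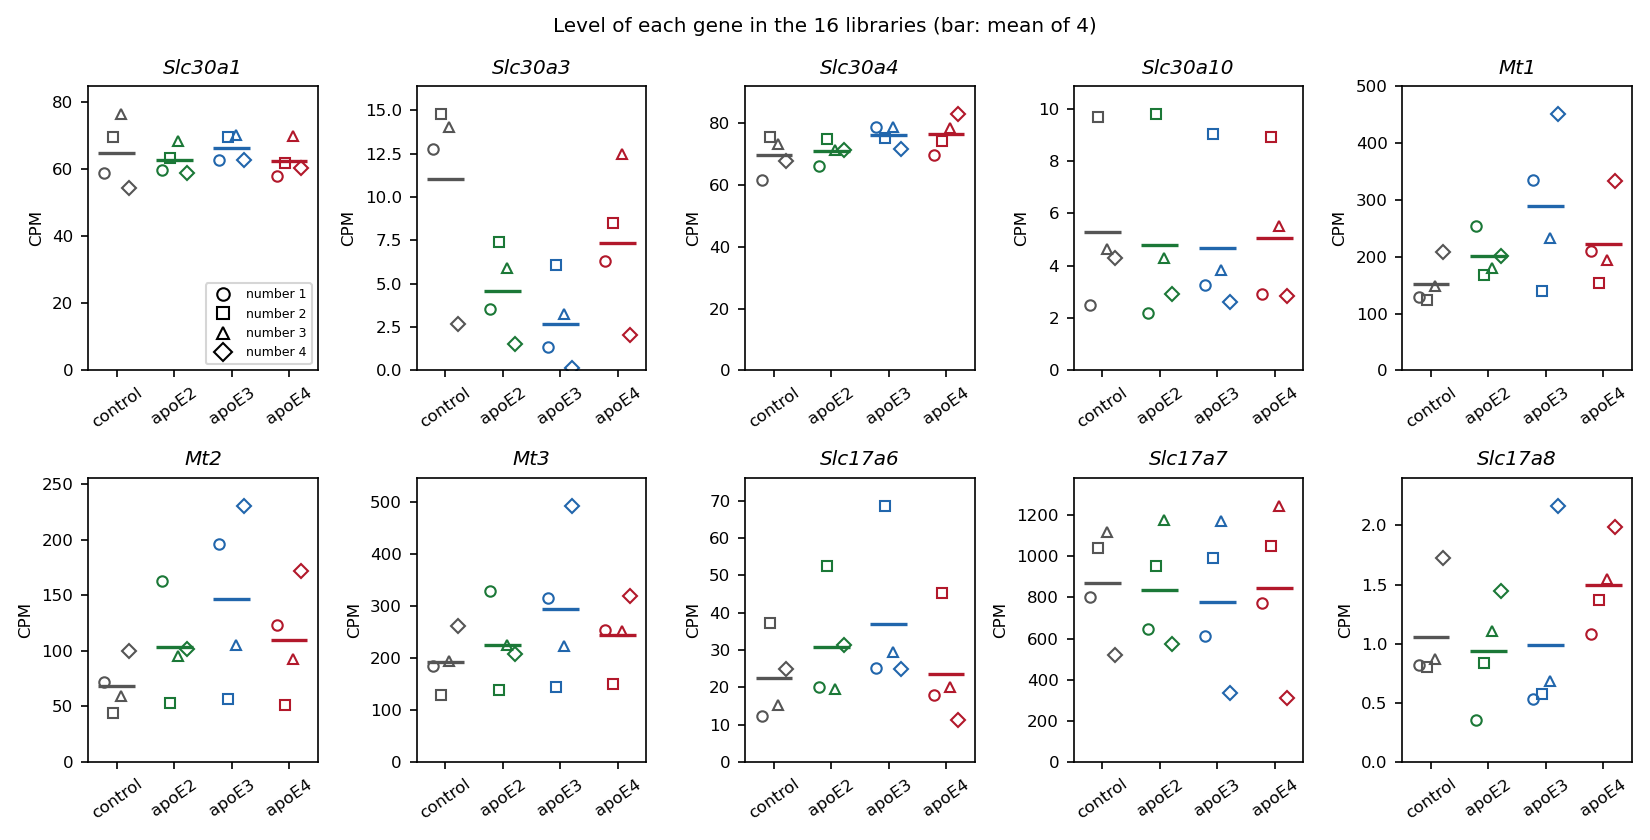
Level of each of the 10 genes in CPM (linear axis from 0) in the 16 libraries, by treatment; symbols give the library number and bars the mean of 4. *Slc30a3* is lowest with apoE3 in each number, from 6.07 CPM down to 0.131, whereas *Slc30a10* and *Slc17a6* are set apart by number 2 in every treatment.

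The ratio of *Slc30a3* to the control library of the same number was 0.107, 0.411, 0.230 and 0.0491 with apoE3. The last of these rests on 2 counts against 51, and its 95% interval, exact and for counting error only, runs from 0.00579 to 0.187. The ratios were 0.276, 0.502, 0.422 and 0.571 with apoE2 and 0.493, 0.575, 0.889 and 0.762 with apoE4. In number 3 the apoE4 library was thus close to its control, while the apoE3 library of that number was at 0.230 of it. Against apoE3 of the same number, the apoE4 library was 4.60, 1.40, 3.86 and 15.5 times as high.

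Without the block the fitted log2 fold change of *Slc30a3* against control was −1.27 (SE 0.79) in apoE2, −2.01 (SE 0.81) in apoE3 and −0.59 (SE 0.78) in apoE4 neurons. With the block it was −1.25 (SE 0.28), −2.14 (SE 0.30) and −0.61 (SE 0.28), so the block left the sizes in place and narrowed the errors. Between isoforms, with the block, it was 1.53 (SE 0.31) for apoE4 against apoE3, 0.63 (SE 0.29) for apoE4 against apoE2 and −0.89 (SE 0.31) for apoE3 against apoE2. Without the libraries numbered 4 the blocked values against control were −1.36 with apoE2 and −2.02 with apoE3. With 1 library left out at a time the apoE3 value without the block ran from −2.76 (without apoE3 number 2) to −1.62 (without apoE3 number 4), and with the block from −2.68 to −1.93.

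All 5 markers of dentate granule cells (*Prox1*, *C1ql2*, *Calb1*, *Dock10* and *Dsp*) were detected, and each was below the control of its number in 4 of 4 pairs with apoE3. They summed to 236 to 498 CPM in the control, 320 to 387 with apoE2, 142 to 292 with apoE3 and 198 to 339 with apoE4. With the block, edgeR called 0 of 5 with apoE2, 3 lower with apoE3 (*Calb1*, *Dock10* and *Dsp*) and 1 lower with apoE4 (*Calb1*), beside 1.73%, 11.7% and 3.3% of all tested genes, and without it none. Relative to the control library of the same number, the sum was 0.586, 0.749, 0.729 and 0.463 with apoE3, each nearer to 1 than the ratio of *Slc30a3*. With apoE2 the sum was 0.776, 1.36, 1.02 and 1.09, and *Calb1* and *Dsp* were above the control in 4 of 4 pairs. Without *Calb1*, a choice made after the values were seen, the sum of the other 4 was 0.630, 1.06, 0.887 and 0.741 with apoE2. Blocked log2 fold changes with apoE2 were −0.37 for *Prox1*, −0.24 for *C1ql2* (lower in 4 of 4 pairs), −0.34 for *Dock10*, 0.52 for *Calb1* and 0.35 for *Dsp*, with a median of −0.24, so 3 of the 5 markers were on the side of *Slc30a3* (−1.25). In a bulk culture fewer cells of a type and less RNA per cell cannot be told apart, and the part of the granule cells in the *Slc30a3* values was not tested.

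**Figure D2:**
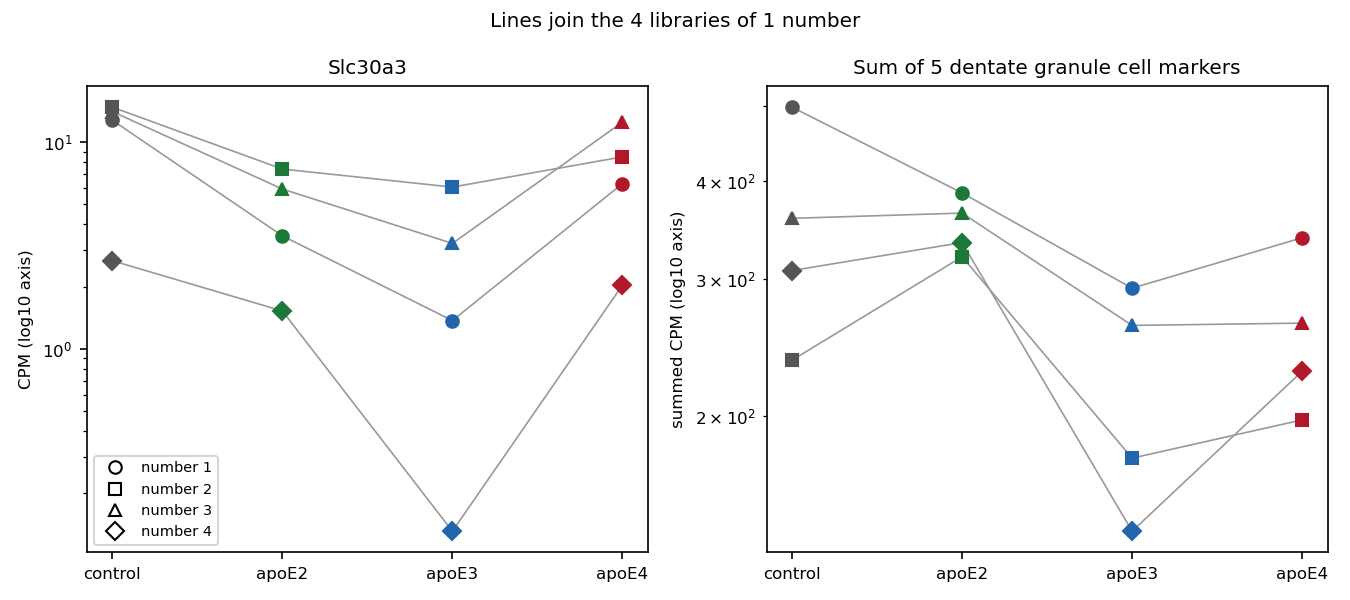
*Slc30a3* (left, CPM) and the sum of 5 dentate granule cell markers (right, CPM), both on log10 axes, by treatment, with lines joining libraries of the same number. *Slc30a3* falls below the control in every line with each isoform, while the marker sum with apoE2 lies above the control in 3 of 4 lines. Without *Calb1* the sum with apoE2 is 0.630, 1.06, 0.887 and 0.741 of the control.

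Genes whose profile over the 16 libraries was most like that of *Slc30a3* were sought among the other 17037 tested genes, by the root mean square difference of log2 CPM after each gene's mean was removed. The nearest 4 were *Gm45177* (0.68), *Atp6v1c2* (0.71), *Gm45179* (0.73) and *Gm37529* (0.73), where a flat profile would give 1.54. These 4 genes had mean levels of 0.667 to 1.31 CPM, so that few reads stand behind each profile. Among the members, *Slc17a7* came closest at rank 453 with a difference of 1.13, and it shares the low libraries numbered 4.

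The other zinc exporters differed little between treatments. *Slc30a1*, which encodes the plasma membrane exporter ZnT1 (chromosome 1, 191906767 to 191913247, plus strand), ranged from 54.5 to 76.3 CPM over all libraries. Its means were 64.8 ± 9.98 CPM in the control, 62.6 ± 4.30 with apoE2, 66.4 ± 4.09 with apoE3 and 62.5 ± 5.14 with apoE4 (SD, n = 4), and the groups overlapped. *Slc30a4*, encoding ZnT4 of intracellular compartments (chromosome 2, 122681233 to 122702663, minus strand), lay between 61.7 and 82.8 CPM, with log2 fold changes of 0.03, 0.13 and 0.13 (SE 0.08 each) against control with apoE2, apoE3 and apoE4. It was the narrowest gene of the list.

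*Slc30a10*, which encodes a transporter known as a manganese exporter (chromosome 1, 185454848 to 185468762, plus strand), showed the library number and hardly the treatment. In number 2 it was 9.70 CPM in the control, 9.78 with apoE2, 9.02 with apoE3 and 8.92 with apoE4. In the 12 libraries of the other numbers it lay between 2.18 and 5.54 CPM. The log2 fold changes against control lay between −0.17 and −0.06 (SE 0.56 each). With the block they were −0.19, −0.19 and −0.06 (SE 0.17 each) with apoE2, apoE3 and apoE4. The gene was below its control in 3, 3 and 2 of 4 pairs, and in number 4 at 0.681, 0.611 and 0.664 of it. Parts of the exons of *Slc30a1* (8.92%), *Slc30a4* (2.37%) and *Slc30a10* (9.13%) lie under genes of the other strand, and whether reads were counted by strand is not given in the sources used here. Those 3 neighbouring genes had means of 1.46, 0.0234 and 1.58 CPM.

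The mean levels of the 3 metallothioneins were above the control with each isoform and highest with apoE3, but the libraries overlapped and not every pair rose. *Mt3*, *Mt2* and *Mt1* follow each other on the plus strand of chromosome 8 within 27721 bases, with *Mt3* at 94152607 to 94154146, *Mt2* at 94172664 to 94173568 and *Mt1* at 94179082 to 94180327. The promoters below, of these 3 genes and of *Slc30a1*, a member that shares the known regulator of *Mt1* and *Mt2* and whose group means differed by less than their spread, are RefSeq sequence (GRCm38.p6) of the 250 bases before the gene's first RefSeq start, and capitals mark the core of the metal response element, TGCACNC or TGCGCNC on either strand.
Mt1: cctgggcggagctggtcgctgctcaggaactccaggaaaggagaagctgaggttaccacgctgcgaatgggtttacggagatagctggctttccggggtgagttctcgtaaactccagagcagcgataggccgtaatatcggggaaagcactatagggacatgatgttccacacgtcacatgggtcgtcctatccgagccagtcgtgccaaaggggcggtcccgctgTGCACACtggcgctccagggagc
Mt2: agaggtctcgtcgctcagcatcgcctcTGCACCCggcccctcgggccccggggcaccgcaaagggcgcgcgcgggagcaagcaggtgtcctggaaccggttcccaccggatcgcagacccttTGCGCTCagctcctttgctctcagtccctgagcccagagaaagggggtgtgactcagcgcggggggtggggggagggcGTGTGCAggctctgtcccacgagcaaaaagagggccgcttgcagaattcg
Mt3: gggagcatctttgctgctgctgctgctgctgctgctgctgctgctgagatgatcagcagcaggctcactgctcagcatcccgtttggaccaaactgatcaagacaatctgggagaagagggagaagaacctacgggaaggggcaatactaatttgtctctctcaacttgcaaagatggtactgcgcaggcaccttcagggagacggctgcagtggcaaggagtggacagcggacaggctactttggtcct
Slc30a1: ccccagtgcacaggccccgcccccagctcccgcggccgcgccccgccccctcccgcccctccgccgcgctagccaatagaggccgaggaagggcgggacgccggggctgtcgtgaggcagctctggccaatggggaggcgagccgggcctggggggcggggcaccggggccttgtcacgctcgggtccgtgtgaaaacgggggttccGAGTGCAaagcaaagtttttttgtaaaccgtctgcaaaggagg

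The core was found 1 time before *Mt1*, 3 times before *Mt2*, 0 times before *Mt3* and 1 time before *Slc30a1*. Of 32851 promoters of the same length, 21.4% held at least 1 core and 1.26% at least 3. The windows end at the RefSeq start, which for *Mt1* (94179089) and *Slc30a1* lies a few bases past the gene start given here. Other coding transcripts of *Mt1* and *Mt2* start further on, up to base 94179241 and 94172860 (GENCODE M21). Between the first and the last of those starts *Mt1* holds 4 cores in 159 bases, at 150, 132, 68 and 54 bases before the last start. *Mt2* holds 3 in 196 bases, at 184, 165 and 131 bases before its last start. As many or more stand in the first 159 bases of 0.0665% of 58690 coding transcripts and in the first 196 bases of 0.58% of 58625, transcripts of 1 gene counted separately. Only *Mt1* and *Mt2*, both known to respond to zinc, were searched between their starts, so these shares describe picked genes and are no test. The core matches are letters in the sequence and no measure of MTF-1 binding. Among the other members, *Slc30a10* holds 3 cores (2 of them overlap), *Slc30a4* 2 and *Slc30a3* 1 before the first start, while no core stands before *Slc17a6*, *Slc17a7* or *Slc17a8*.

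*Mt1* was at 130, 124, 149 and 208 CPM in the control libraries 1 to 4. It was at 254, 168, 180.3 and 201 CPM with apoE2, at 334, 139.6, 233 and 450.1 with apoE3, and at 209.7, 154, 195 and 332 with apoE4. It was above the control of its number in 4 of 4 pairs with apoE3 and with apoE4 and in 3 of 4 with apoE2, and the groups overlapped. *Mt2* was at 71.9, 43.7, 59.3 and 99.5 CPM in the control and at 196, 56.4, 105 and 230.3 with apoE3. With apoE2 it was at 163, 52.7, 95.3 and 101 CPM and with apoE4 at 123, 51.2, 92.8 and 172, higher than its control in 4 of 4 pairs with each isoform. *Mt3* ranged from 129 to 261 CPM in the control, from 139 to 329 with apoE2, from 144 to 493 with apoE3 and from 149 to 320.1 with apoE4. In number 4 the apoE2 library was below its control for *Mt1* (201 against 208 CPM) and *Mt3* (207 against 261). That library is 1 of the 2 with few reads off single genes, and the part of this in its values was not tested. For all 3 genes the library with the highest level was apoE3 number 4, and number 2 was lowest in every group.

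Without the block the log2 fold changes with apoE2, apoE3 and apoE4 were 0.40, 0.92 and 0.55 for *Mt1* (SE 0.31 to 0.32), 0.59, 1.10 and 0.68 for *Mt2* (SE 0.45 to 0.46) and 0.23, 0.61 and 0.34 for *Mt3* (SE 0.36 each). With the block they were 0.42, 0.84 and 0.51 for *Mt1*, 0.55, 0.97 and 0.60 for *Mt2* and 0.23, 0.53 and 0.33 for *Mt3*, with SEs of 0.17 to 0.18. Without the libraries numbered 4 the blocked values with apoE3 were 0.73 for *Mt1*, 0.87 for *Mt2* and 0.36 for *Mt3*, and that of *Mt3* with apoE2 was 0.37. Without the block *Mt3* was then at 0.43 with apoE2 and 0.41 with apoE3. When only apoE2 number 4 was left out, the blocked apoE2 values were 0.59 for *Mt1*, 0.74 for *Mt2* and 0.41 for *Mt3*. The apoE2 value of *Mt3* without the block rests on apoE2 number 1 and was −0.02 when that library was left out. The ratio of *Mt1* to *Mt2* was 2.31 ± 0.45 in the control, 2.16 ± 0.72 with apoE2, 2.09 ± 0.33 with apoE3 and 2.19 ± 0.57 with apoE4 (SD, n = 4). The means differed by less than the SDs, while by number the ratio was below its control in 4 of 4 pairs with apoE3 (1.71, 2.47, 2.21 and 1.95 against 1.81, 2.83, 2.504 and 2.09) and in 3 of 4 with apoE2 and with apoE4. In GENCODE M21, 73.5% of the exon bases of *Mt2* lie under *Gm45774* on the other strand, a symbol that is not among those counted, and with no strand given some *Mt2* counts may be of that RNA.

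**Figure D3:**
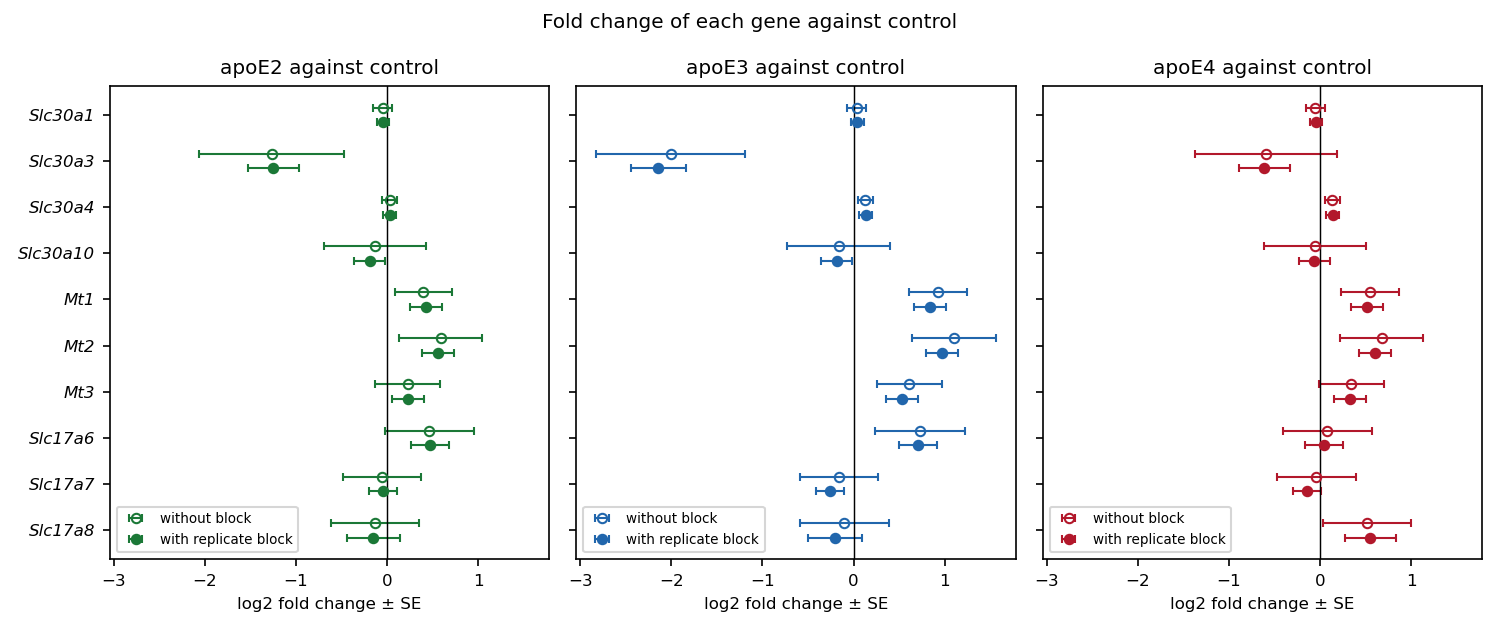
Log2 fold change of each gene against control (x axis, ± SE) with apoE2, apoE3 and apoE4, without (open) and with (filled) the replicate block, n = 4 libraries a group. *Slc30a3* lies left of 0 with each isoform, at −2.01 with apoE3 without the block, and *Mt1*, *Mt2* and *Mt3* lie right of 0 with each.

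Astrocyte markers and metallothioneins both summed above the control in each number with apoE3 and apoE4, though not with apoE2. The 12 markers summed to 1446 to 3239 CPM in the control, 1346 to 3225 with apoE2, 1742 to 6716 with apoE3 and 1609.7 to 5480 with apoE4. Of 11 tested, edgeR with the block called 9 higher with apoE3, 4 higher with apoE4 and 0 with apoE2. Those fits called 11.7%, 3.3% and 1.73% of all tested genes in the same order. Without the block none of the 11 was called. *Gfap*, the astrocyte filament protein, had a blocked log2 fold change of 1.40 (SE 0.19) with apoE3, at an edgeR adjusted p of 0.000543, and was higher in 4 of 4 pairs. Against the control of the same number the marker sum was 2.06, 1.20, 1.34 and 2.07 times as high with apoE3, and the sum of *Mt1*, *Mt2* and *Mt3* was 2.19, 1.14, 1.40 and 2.06 times as high. With apoE4 the marker sum was 1.65, 1.11, 1.46 and 1.69 times as high and the metallothionein sum 1.52, 1.20, 1.34 and 1.45 times. With apoE2 the marker sum was 1.47, 0.931, 1.18 and 0.945 times as high and the metallothionein sum 1.93, 1.21, 1.24 and 0.896 times. *Slc1a2*, the astrocyte glutamate transporter GLT-1, made up 7.61 to 61.5% of the marker sum. It went against most of the other markers with apoE2 and apoE3, being below its control in 4 of 4 and 3 of 4 pairs. With apoE4 it was above its control in 3 of 4 pairs. Without *Slc1a2*, a choice made after the values were seen, the marker sum was 1.95, 1.40, 1.37 and 0.966 times the control with apoE2, 2.87, 1.53, 1.72 and 2.35 times with apoE3 and 1.96, 1.34, 1.63 and 1.85 times with apoE4.

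How the metallothioneins compared with the astrocyte markers depended on *Slc1a2*. With all 12 markers the metallothionein sum was 17.9 ± 1.91% of the marker sum in the control, 20.8 ± 4.95% with apoE2, 18.1 ± 1.27% with apoE3 and 17.0 ± 3.44% with apoE4 (SD, n = 4). Without *Slc1a2* it was 32.8 ± 14.1%, 29.8 ± 11.4%, 25.8 ± 9.54% and 27.3 ± 13.7% in the same order, and below the control of the same number in 4 of 4 pairs with each isoform. With apoE3 it was then 21.5, 39.9, 22.9 and 18.9% against 28.1, 53.3, 28.1 and 21.5% in the control. Both measures were chosen after the values were seen, and the part of astrocyte content in the metallothionein levels was not tested. Markers of the oligodendrocyte lineage summed to 109 to 451 CPM in the control and 143 to 866 with apoE3, with 4 of 9 called higher with the block, and those of microglia to at most 53.3 and 80.1 CPM, with 0 of 8 called. In the remaining lists the blocked apoE3 fit, which called 11.7% of all tested genes, called 1 higher and 3 lower of 8 neuronal markers, 2 higher and 4 lower of 9 markers of GABAergic interneurons, 1 higher of 6 of CA pyramidal cells and 1 higher of 9 tested of mural, endothelial and fibroblast cells.

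**Figure D4:**
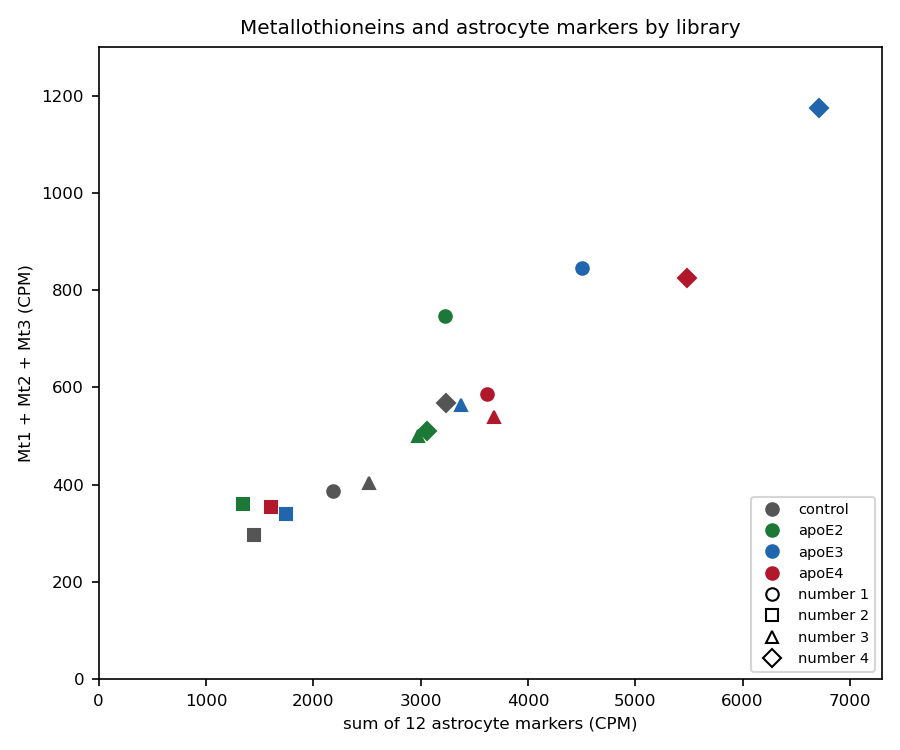
Sum of *Mt1*, *Mt2* and *Mt3* (y axis, CPM) against the sum of 12 astrocyte markers (x axis, CPM) in the 16 libraries, coloured by treatment, with symbols for the library number. The 4 libraries numbered 2 lie lowest on both axes, and apoE3 number 4 lies highest on both, at 6716 and 1174 CPM.

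The 5 genes most like *Mt1* in profile were *Fth1* (0.14), *Samd5* (0.15), *Pea15a* (0.16), *Cyb5r3* (0.16) and *Sfxn5* (0.16), where a flat profile would give 0.51. *Fth1* encodes the heavy chain of the iron store ferritin and *Cyb5r3* a cytochrome b5 reductase. *Mt3* ranked 34 (0.22) and *Mt2* ranked 320 (0.30) among 17037 genes, and *Slc30a1* ranked 6538.

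*Slc17a7* made up nearly all RNA of the vesicular glutamate transporters. Per kilobase of the longest coding transcript, its level was 298 ± 92.9 in the control, 287 ± 96.0 with apoE2, 267 ± 129 with apoE3 and 290 ± 139 with apoE4 (CPM per kb, SD, n = 4), against 5.41 ± 2.71, 7.45 ± 3.72, 8.95 ± 5.10 and 5.69 ± 3.61 for *Slc17a6*. *Slc17a8* stood at 0.211 to 0.336 CPM per kb and rested on 5 to 57 counts a library. As a share of the 3 per-kilobase levels VGLUT1 held 98.0 ± 1.18% in the control, 97.2 ± 1.29% with apoE2, 96.3 ± 1.64% with apoE3 and 97.8 ± 0.885% with apoE4. VGLUT2 held 1.93 ± 1.12%, 2.68 ± 1.26%, 3.54 ± 1.52% and 2.02 ± 0.819%.

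*Slc17a6* (chromosome 7, 51622006 to 51671119, plus strand) was at 12.2, 37.1, 15.3 and 24.8 CPM in the control libraries 1 to 4. It was at 25.2, 68.5, 29.5 and 24.9 CPM with apoE3, or 2.07, 1.85, 1.93 and 1.00 times its control. With apoE2 it was at 20.1, 52.4, 19.5 and 31.3 CPM, higher than its control in 4 of 4 pairs, and with apoE4 at 17.8, 45.2, 20.04 and 11.1 CPM, lower only in number 4. The log2 fold change was 0.46 in apoE2, 0.73 in apoE3 and 0.08 in apoE4 neurons (SE 0.49 each). With the block they were 0.47, 0.71 and 0.04 (SE 0.20 to 0.21), and without the libraries numbered 4 they were 0.51, 0.95 and 0.38. The apoE4 value near 0 thus rests on number 4.

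*Slc17a7* (chromosome 7, 45163949 to 45176142, plus strand) was at 803, 1039, 1120.4 and 518 CPM in the control and at 612, 991, 1169.9 and 335 with apoE3. Its log2 fold changes were −0.05 in apoE2, −0.16 in apoE3 and −0.04 in apoE4 neurons (SE 0.43 each), all smaller than their errors. With the block they were −0.04, −0.25 and −0.14 (SE 0.15 each), of which the apoE3 value exceeds its error, and without the libraries numbered 4 the blocked values were −0.14, −0.15 and 0.02. *Slc17a8* (chromosome 10, 89574020 to 89621253, minus strand) was at 0.818, 0.805, 0.873 and 1.73 CPM in the control and at 1.08, 1.37, 1.55 and 1.98 with apoE4, where it was higher in 4 of 4 pairs with a log2 fold change of 0.51 (SE 0.48). With apoE2 it was at 0.352, 0.841, 1.11 and 1.45 CPM (−0.13, SE 0.48, lower in 2 of 4 pairs) and with apoE3 at 0.533, 0.574, 0.686 and 2.17 CPM (−0.10, SE 0.49, lower in 3 of 4). With the block the values were −0.15 (SE 0.29), −0.21 (SE 0.30) and 0.55 (SE 0.28) with apoE2, apoE3 and apoE4, of which the apoE4 value exceeds its error. Without the libraries numbered 4 the unblocked values were −0.08, −0.47 and 0.67 in the same order.

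Counted over the list, edgeR without the block called 0 of 10 members at an adjusted p under 0.05 in each of the 6 comparisons, and DESeq2 called 0 as well, while at an unadjusted p under 0.05 edgeR had 3 members with apoE3 (*Slc30a3*, *Mt1* and *Mt2*) and 0 in the others. Of all tested genes, 2.79%, 6.43% and 3.3% had such a p with apoE2, apoE3 and apoE4 against control, and 4.7%, 5.34% and 2.28% for apoE4 against apoE3, apoE4 against apoE2 and apoE3 against apoE2. At the adjusted threshold it called 0% of all tested genes in apoE2, 0.00587% in apoE3 and 0.194% in apoE4 neurons against control, and 0.147% for apoE4 against apoE3, 0.252% for apoE4 against apoE2 and 0% for apoE3 against apoE2. With the replicate block 1 member was called with apoE2 (*Slc30a3*, lower) beside 1.73% of all tested genes. With apoE3, 4 members were called (*Mt1*, *Mt2* and *Slc17a6* higher and *Slc30a3* lower) beside 11.7%. With apoE4 none was called, beside 3.3%. Between isoforms the block gave 1 member for apoE4 against apoE3 (*Slc30a3*, higher with apoE4) beside 1.76%, and 0 for apoE4 against apoE2 and apoE3 against apoE2 beside 4.44% and 1.31%. At the criterion of the study, a change of at least 2-fold with an unadjusted p under 0.05, 2 members passed with apoE3 (*Mt2* higher, *Slc30a3* lower) beside 1.96% of all genes, and 0 with apoE2 and apoE4 beside 0.722% and 1.15%. No member had groups that did not overlap in any of the 3 comparisons with control, where 2.19%, 2.59% and 1.91% of genes did. The 3 comparisons share the control libraries, and the members were picked from them, so nothing is read from these counts.

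With the block, *Slc30a3*, *Mt1* and *Mt2* with apoE3 stayed called in 16 of 16 fits with 1 library left out. Other blocked calls were lost in some of these fits. When 1 library at a time was left out of the blocked fit, *Slc17a6* with apoE3 was no longer called without control number 1, 2 or 3, apoE2 number 2 or apoE3 number 1, 2 or 3, with log2 fold changes of 0.60 to 0.93 over the 16 fits. *Slc30a3* with apoE2 was no longer called without any 1 of the 4 control libraries, apoE2 numbers 1, 2 and 3, apoE3 number 3 or apoE4 number 1, with values of −1.39 to −1.03. For apoE4 against apoE3 it was no longer called without apoE3 number 1 or 3 or apoE4 number 1 or 3, with values of 1.34 to 2.07.

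The library number, a label that did not choose the list, was tested in the blocked fit. Between numbers, edgeR called 9 of 10 members, all but *Slc30a4*, at an adjusted p under 0.05, beside 63.8% of all tested genes. *Slc30a10* had 92.3% of its log2 CPM variance between numbers and 1.38% between treatments, and *Slc17a7* had 87.9% and 2.58%. The medians over all tested genes were 56.1% and 14.4%. The largest shares between treatments were those of *Slc30a3* (37.4%), *Slc30a4* (33.8%) and *Mt1* (33.5%). The highest mean of a number was 5.77 times the lowest for *Slc30a3* (number 2 over number 4), 3.44 times for *Slc30a10* (number 2 over 1), 2.96 times for *Mt2* (number 4 over 2) and 2.71 times for *Slc17a7* (number 3 over 4). The labels do not say what a number stands for, and per the study's methods the libraries of an isoform came from independent cultures.

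**Figure D5:**
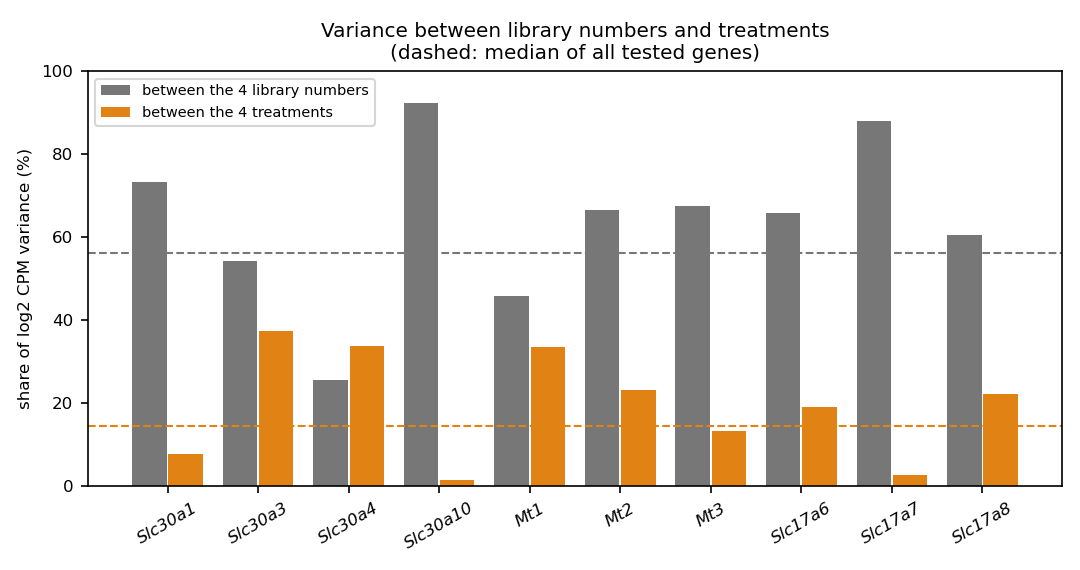
Share of the log2 CPM variance of each gene (y axis, %) that lies between the 4 library numbers (grey) and between the 4 treatments (orange), with dashed lines at the medians of all tested genes, 56.1% and 14.4%. *Slc30a10* reaches 92.3% between numbers, and in *Slc30a4* the treatment bar is the taller one.

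Further genes of the same pathways, 45 in 6 lists that hold no member, were compared in the same fits, and 35 of 45 passed the filter on low counts. Without the block edgeR called 0 of 35 in each of the 6 comparisons, as DESeq2 did, and at an unadjusted p under 0.05 it had 1, 4 and 1 of them with apoE2, apoE3 and apoE4 against control. The shares of all tested genes at that p were 2.79%, 6.43% and 3.3%. With the block it called 1 with apoE2, 4 with apoE3 and 1 with apoE4 against control, beside 1.73%, 11.7% and 3.3% of all tested genes, which is about the number these shares give over 35 genes. Their median log2 fold change without the block was −0.01 in apoE2, 0.02 in apoE3 and 0.02 in apoE4 neurons, beside 0.01, 0.02 and 0.00203 over all tested genes.

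Among the other exporters, *Slc30a9*, *Slc30a5* and *Slc30a7* were the most abundant, with means of 178, 55.2 and 22.7 CPM, and none of them was called. *Tmem163*, which encodes a zinc transporter of vesicles and endosomes, was lower with apoE2 (blocked log2 fold change −0.86, SE 0.17, adjusted p = 0.0201 by edgeR) and with apoE3 (−0.93, SE 0.17, edgeR adjusted p = 0.00404), in 4 of 4 pairs each. It stood at 5.82, 7.69, 5.97 and 3.93 CPM in the control and at 3.12, 4.06, 4.15 and 1.31 with apoE3. *Slc30a2* and *Slc30a8* did not pass the filter, with at most 27 and 4 counts in a library.

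Of the 14 SLC39 genes, which encode the ZIP proteins that bring zinc into the cytosol, 13 were tested. Under the block 2 of the 13 were called higher with apoE3, beside 11.7% of all tested genes called in that fit. *Slc39a1* (ZIP1) had a blocked log2 fold change of 0.82 (SE 0.10, adjusted p = 0.000334 by edgeR), from 30.9 to 69.3 CPM in the control to 48.2 to 130.5 with apoE3, and was higher in 4 of 4 pairs. It was also lower with apoE4 than with apoE3 (−0.46) and higher with apoE3 than with apoE2 (0.47). *Slc39a13* (ZIP13) had a value of 0.49 (SE 0.11, edgeR adjusted p = 0.0111). The most abundant ZIP genes, *Slc39a6* (121 CPM), *Slc39a3* (102 CPM) and *Slc39a10* (67.6 CPM), were not called. *Slc39a1* was highest in the same 2 libraries as *Mt1* and *Mt2*, apoE3 number 4 and apoE3 number 1, and the part of the astrocyte markers in it was not tested.

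*Mtf1*, encoding the zinc sensor that acts on metal response elements, was at a mean of 46.7 CPM and was not called in any comparison. *Mt4*, the fourth metallothionein, and *Gpr39*, a zinc-sensing receptor, were below the filter with at most 2 and 5 counts in a library. The 4 listed subunits of AP-3, the adaptor that sends ZnT3 to synaptic vesicles, were not called either. Of these *Ap3d1*, *Ap3b2* and *Ap3m2* had means of 271, 211 and 141 CPM.

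In the remaining vesicular and SLC17 transporters, 5 of 10 genes were tested and none was called, with *Slc17a5* (sialin), *Slc32a1* (the vesicular GABA transporter) and *Slc18a2* (the vesicular monoamine transporter) at means of 25.2, 21.8 and 6.38 CPM. Among 7 genes of glutamate supply and uptake, *Slc1a2* had a mean of 789 CPM and *Slc1a3* of 316 CPM. *Slc1a3*, the astrocyte glutamate transporter GLAST and 1 of the 12 astrocyte markers, was higher with apoE3 under the block (0.62, SE 0.18, edgeR adjusted p = 0.0342). *Slc38a1*, a glutamine transporter, was higher with apoE4 than in the control (0.28, SE 0.07, edgeR adjusted p = 0.0373), and also than with apoE3 (0.36) and apoE2 (0.40), in 4 of 4 pairs each. *Slc1a2*, the other astrocyte marker on this list, had blocked values of −0.39 with apoE2, −0.24 with apoE3 and 0.12 with apoE4 against control (SE 0.12 each), none of them called, and was higher with apoE4 than with apoE2 (0.51).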

How the data were processed

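RNA of 16 libraries was measured by RNA-seq. Reads had been mapped to mm10 by STAR, and the authors deposited raw HTSeq counts per gene symbol. The annotation and the strand setting are not given in the sources used here. Reads on no single gene (38.4 to 73.7% of a library) were left out. Counts were scaled by TMM and fitted with edgeR 4.0.16 (R 4.3.3, quasi-likelihood test) over all libraries, after filterByExpr (minimum count 10, total 15, proportion 0.7). P-values were adjusted by Benjamini-Hochberg over 17038 genes within each comparison. Groups and numbers came from the labels. Same-numbered libraries deviated together in 24 of 24 pairs (r = 0.36 to 0.83, against −0.74 to 0.57 for different numbers), so the numbers were taken to pair the samples, and the fit with 3 more coefficients for the number is given beside the main one. The scripts were tested on simulated counts for apoE3 against control. There the fit without the block called 10% of 2-fold and 96% of 4-fold changes, and the fit with it 99% and 100%. A gene not called without the block is thus not shown to be unchanged.

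The members, the companion lists and the marker lists were chosen with earlier results of these data known. Named were all members, companion genes called in any comparison or among the 3 most abundant of their list, markers within their lists, and the 5 nearest profiles of *Slc30a3* and *Mt1*. Of these, 2 genes are not reported here. For profiles, log2 CPM had a prior count of 2. The longest coding transcript of GENCODE M21 gave lengths. Alternatives were DESeq2 size factors, no filter, 1 CPM in 8 libraries, DESeq2 1.42.0, only the 2 groups compared, the replicate block and each library left out.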

Additional observations from a re-analysis of the deposited data

Results flagged for a closer look

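In 4 of 40 groups of 4 libraries 1 library stood apart from the other three, its gap to the nearest being most of the range of the group (Dixon test), which chance gives in about 1 group in 20. *Slc30a3* in control number 4 was at 2.67 CPM, against 12.8 to 14.8 in the other control libraries. *Slc17a6* in apoE3 number 2 was at 68.5 CPM, against 24.9 to 29.5. *Slc17a8* was at 1.73 CPM in control number 4, against 0.805 to 0.873, and at 2.17 CPM in apoE3 number 4, against 0.533 to 0.686.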

How the results depend on the processing

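Without the replicate block, 0 members and 0 companion genes were called in each comparison with DESeq2 size factors, no low-count filter, the stricter filter, DESeq2, only the 2 groups compared or 1 library left out (range 0 to 0). In the blocked fit, 9 of 10 members were called between numbers with DESeq2 size factors, with both other filters and with 1 library left out (range 9 to 9). The replicate block changed the member counts from 0 to 1 (apoE2), 4 (apoE3) and 1 (apoE4 against apoE3) and the companion counts from 0 to 1, 4 and 1 with apoE2, apoE3 and apoE4 and to 2, 2 and 1 for apoE4 against apoE3, apoE4 against apoE2 and apoE3 against apoE2. It changed no other call of these counts. At the criterion of the study, applied to the edgeR p, the block gave 1 member with apoE2 and 1 with apoE3, and fitting only the 2 groups gave 1 with apoE3. Leaving out 1 library gave 0 to 3 members with apoE3, 0 of them without control number 2, control number 3 or apoE3 number 1 and 1 without apoE3 number 4.

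The following alternatives were chosen after seeing the data. Without the libraries numbered 4, the criterion gave 1 member with apoE2 and 1 with apoE3, and the blocked member counts were 3 (apoE2), 1 (apoE4), 2 (apoE4 against apoE3) and 1 (apoE3 against apoE2), beside 4.14%, 3.04%, 2.17% and 0.678% of all tested genes in the same fits, with companion counts of 3 (apoE2), 0 (apoE4) and 0 (apoE3 against apoE2). With the block, leaving out 1 library gave 0 to 3 members with apoE2, 3 to 5 with apoE3, 0 to 2 with apoE4, 0 to 1 for apoE4 against apoE3, 0 to 0 for apoE4 against apoE2 and 0 to 1 for apoE3 against apoE2. All tested genes gave 0.334 to 4.97%, 4.29 to 15.9%, 1.29 to 5.82%, 0.577 to 2.59%, 2.07 to 5.5% and 0.322 to 1.58% in those fits. The companion counts were 0 to 3, 2 to 5, 0 to 3, 0 to 3, 1 to 4 and 0 to 1 in the same order. With apoE2 the companion count was 0 without control number 1 or 2 or apoE2 number 1, 2 or 3, and with apoE3 it was 2 without control number 1, apoE3 number 1 or apoE3 number 4. The highest counts and shares with apoE2 and apoE4 came without apoE2 number 4, the companion count with apoE4 also without apoE2 number 1. Of the member fold changes without the block, that of *Slc17a8* for apoE4 against apoE3 moved by more than the spread of its libraries, to 1.30 on the log2 scale without apoE3 number 4. The cause of these changes was not tested. Depth limits *Slc17a8* (5 to 57 counts a library) and *Slc30a3* with apoE3 (2 to 148 counts).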
